A study of Mus musculus with 4 samples.

Results

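The libraries compared were sham (KS) and denervated (KD) tibialis anterior (TA) muscle of Fgf21KO mice, which are 2 of the 4 mRNA-sequencing libraries of the series. The members are all genes with a mean of at least 50 counts over KS and KD, which left 11343 of the 13825 genes analysed here. Per the design text deposited with the series, KS and KD come from adult male mice that lack the Fgf21 gene in the whole body, so that every tissue and not muscle alone carries the deletion. In KD muscle the sciatic nerve of the left leg had been cut and a piece of it removed 14 days before collection. The design text gives the sham muscle as that of the innervated right leg, whereas the paper's methods describe the same operation on the opposite limb without the cut. The WT pair, sham (WS) and denervated (WD), had the same surgery and the same 14 days and comes from mice that carry the gene. Each library holds the pooled RNA of 4 muscles, so each group is 1 library, no difference has a replicate check, and no p-value is given. The question addressed by the comparison is how TA muscle without Fgf21 responds to the loss of its nerve.

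A skeletal muscle fiber takes its activity, its contractile type and the place of its acetylcholine receptors from the motor nerve. Once the nerve is cut, receptor genes that are normally read only under the synapse are read along the whole fiber, class IIa histone deacetylases bind and silence MEF2 factors, and ubiquitin ligases such as atrogin-1 mark fiber proteins for breakdown. FGF21 is a hormone of the fibroblast growth factor family that liver makes in fasting and that stressed muscle can also make.

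Counts over the genes analysed here summed to 34141303 in KS and 27740920 in KD, against 25249879 in WS and 29150147 in WD. Of these counts, the 13 protein genes of the mitochondrial genome took 30.4% in KS and 20.6% in KD. Levels are given as CPM, counts over the library size after TMM scaling, a method that sets the bulk of genes to the same level in both libraries. Differences are the log2 ratio of KD over KS, in which 1 is a 2-fold difference, and intervals (95%) cover counting error only. Scaling to total counts alone instead adds about 0.36 to the median ratio of all genes, so a value between -0.36 and 0 changes its sign under that scaling. At a ratio of 2-fold or more, 726 genes (6.40% of the 11343 compared) were higher in KD and 639 (5.63%) were lower. At 4-fold or more these numbers were 186 and 72, and at 16-fold or more 36 and 4, so large ratios were more often upward. Scaled to total counts alone, 1527 genes were at least 2-fold higher and 265 lower, so the share of upward calls went from 53.2% to 85.2%. Under the myofiber check, the fast-fiber genes Myh1, Tnni2 and Mylpf together reached 40014 CPM in KS and 27359 CPM in KD, and the other 8 markers of that list were not analysed here. The targeted gene itself was also not analysed here, so the genotype label was not checked against it.

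**Figure D1:**
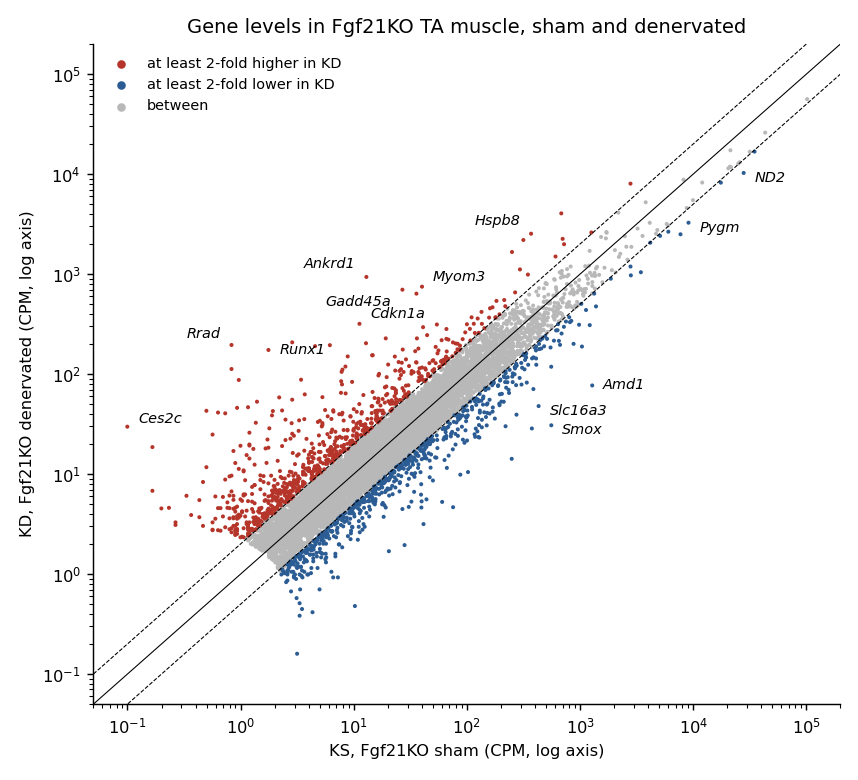
Level of each of the 11343 genes in KS (horizontal axis) and KD (vertical axis), both in CPM on log axes, with a solid line at equality and dashed lines at 2-fold. Red points (726) lie at least 2-fold above and blue points (639) at least 2-fold below the sham level. Rrad and Ces2c stand farthest above the line, and Smox and Amd1 lie far below it.

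The 12 highest ratios belonged, with the exception of Ankrd1, to genes at 2.86 CPM or less in sham muscle. Rrad, a small GTPase that restrains L-type calcium channels, was at 0.83 CPM in KS and 195 CPM in KD, a log2 ratio of 7.77 (interval 7.32 to 8.51). Runx1, a transcription factor with a known place in denervated muscle, was at 1.76 CPM in KS and 174 CPM in KD (6.58). Ankrd1, an ankyrin repeat protein of the sarcomere and nucleus, was at 12.9 CPM in KS and 936 CPM in KD (6.17). In counts, Rrad went from 25 in KS to 6124 in KD and Runx1 from 53 to 5459. The carboxylesterase gene Ces2c had 3 counts in KS and 933 in KD, a log2 ratio of 7.50 whose counting interval runs from 6.67 to 10.50. Plekhh1 (6.97), the adhesion protein gene Emb (6.41), the MYC family member Mycl (6.34), the actin-binding Aif1l (6.15), the potassium channel gene Kcnk5 (5.89), the noncoding Srrm4os (5.67) and the prostaglandin-degrading enzyme gene Hpgd (5.53) made up the rest of the 12 highest, with the predicted gene Gm46162. All 12 also passed 2-fold upward in the WT pair, where their ratios ran from 4.85 (Hpgd) to 7.88 (Plekhh1).

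Polyamine genes stood near the opposite end. Smox, which encodes spermine oxidase, was at 557 CPM in KS and 30.7 CPM in KD, a log2 ratio of -4.18 (interval -4.27 to -4.09). Amd1 and Amd2, which encode the S-adenosylmethionine decarboxylase that supplies polyamine synthesis, had ratios of -4.06 and -4.12. Amd1, Amd2 and the pseudogenes Amd-ps3 (-3.68) and Amd-ps4 (-3.81) share near-identical sequence, so how reads were divided among them is uncertain and they are best read as a single signal. Ramp1, a partner of the calcitonin receptor-like receptor, was at 75.4 CPM in KS and 4.66 CPM in KD (-4.00). Mlf1 (-3.71), Fam57b (-3.50), the sphingolipid transporter gene Spns2 (-3.28) and Rsc1a1 (-3.54) were lower as well, as was the predicted gene Gm39256. Rsc1a1 is known to lie within another gene, and its counts may include reads of that neighbor.

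**Figure D2:**
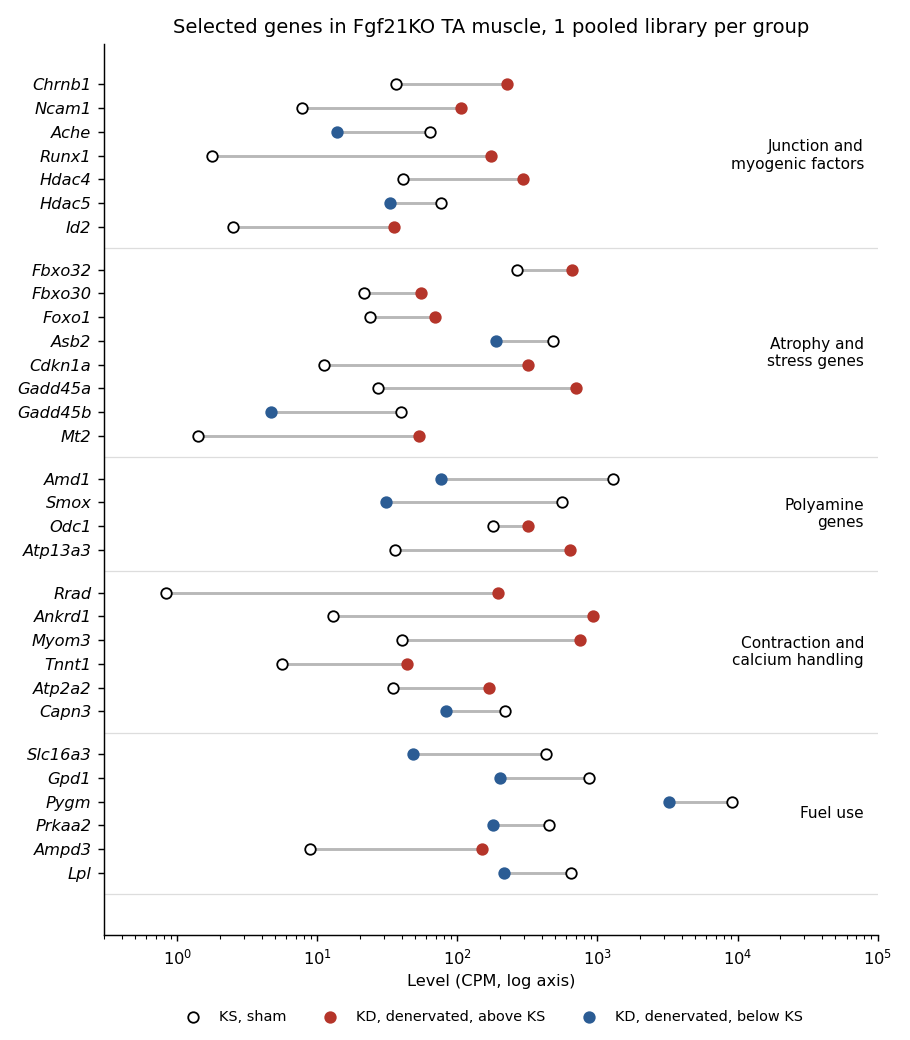
Level in CPM (log axis) of 31 genes of the junction, atrophy, polyamine, contraction and fuel groups. Open circles are KS, filled circles are KD (red above, blue below the sham level), and the gray bar joins the 2 libraries, so its length is the ratio. Rrad, Runx1 and Ankrd1 have the longest bars to the right, and Smox and Amd1 the longest to the left.

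Among genes of the neuromuscular junction, 4 were at least 2-fold higher in KD and the gene of the acetylcholine-splitting enzyme was lower. Chrnb1, the beta subunit and the only subunit of the muscle acetylcholine receptor analysed here, was at 36.1 CPM in KS and 227 CPM in KD, a log2 ratio of 2.65 (interval 2.56 to 2.75). Ncam1, the neural cell adhesion molecule that spreads over denervated fibers, was at 7.80 CPM in KS and 105 CPM in KD (3.74). Ache, the gene of acetylcholinesterase, was at 63.4 CPM in KS and 13.8 CPM in KD (-2.19). Col25a1, a membrane collagen with a role in motor innervation, reached 3.29 CPM from 0.266 CPM (3.34), and Nes, the intermediate filament nestin, 136 CPM from 59.7 CPM (1.19). These 5 were the only genes past 2-fold among the 26 of the list that could be compared. The shares were 15.4% higher and 3.85% lower, against 6.40% and 5.63% over all genes. The median ratio of the list was 0.37 against 0.00 over all genes. Those genes of the signal that clusters receptors that were compared in this list stayed within 2-fold. Agrin (Agrn) had a ratio of 0.26, its receptor Lrp4 0.72, cortactin (Cttn) 0.85 and Dvl1 0.28, and these values do not cover the rest of that signal. Neuregulin receptors were likewise within 2-fold, at 0.53 for Erbb2 and 0.51 for Erbb3. Of the synaptic scaffold, Macf1 (0.99), Sntb1 (0.91) and Syne1 (0.87) lay just under 2-fold, Utrn, which encodes utrophin, was at 0.36, and the synaptic laminin gene Lamb2 (-0.59) was below its sham level by less than 2-fold.

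Class IIa histone deacetylases did not move as a group. Hdac4 was at 40.9 CPM in KS and 294 CPM in KD, a log2 ratio of 2.84 (interval 2.76 to 2.93). Hdac5 was at 76.5 CPM in KS and 33.2 CPM in KD (-1.20), while Hdac7 (-0.76) and Hdac9 (-0.90) lay below their sham levels by less than 2-fold. The class I genes Hdac1, Hdac2 and Hdac3 stayed between -0.20 and 0.11. Among the MEF2 factors that class IIa deacetylases silence, Mef2a was at 179.7 CPM in KS and 369 CPM in KD (1.04), just past 2-fold, against 0.31 for Mef2c and -0.23 for Mef2d. The Id proteins, which block the pairing of myogenic factors with E proteins, were above sham in all 3 members: Id2 at 2.49 CPM in KS and 35.0 CPM in KD (3.78), Id3 at 0.91 and Id1 at 0.36. Their E-protein partners were less than 2-fold away, with ratios of -0.42 for Tcf3, -0.02 for Tcf4 and 0.55 for Tcf12. Cbfb, the partner subunit of Runx1, had a ratio of -0.16 beside the 6.58 of Runx1. Among genes of satellite cells and fusion, the syndecan gene Sdc4 was at 17.2 CPM in KS and 48.5 CPM in KD (1.49) and the Notch target Heyl at 12.3 CPM in KS and 5.26 CPM in KD (-1.21), and the other 6 lay between -0.86 and -0.05.

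The promoters of Mef2a, Hdac5 and Id2 are shown because these are the genes of this group past 2-fold in which a searched motif was found. Each run is 250 bases before to 50 after the RefSeq start on build GRCm38.p6, read along the gene, at chr7:67372809-67373108 (minus strand), chr11:102230123-102230422 (minus strand) and chr12:25096043-25096342 (minus strand). Capitals mark the MEF2-like word TAAAAATA in Mef2a, its reverse complement in Hdac5, and the E-box CAGCTG in Id2.
Mef2a: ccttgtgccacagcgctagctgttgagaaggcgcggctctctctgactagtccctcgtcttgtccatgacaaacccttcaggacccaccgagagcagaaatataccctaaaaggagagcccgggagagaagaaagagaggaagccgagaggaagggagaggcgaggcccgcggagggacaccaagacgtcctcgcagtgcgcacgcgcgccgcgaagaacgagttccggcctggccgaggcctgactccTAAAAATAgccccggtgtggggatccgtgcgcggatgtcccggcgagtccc
Hdac5: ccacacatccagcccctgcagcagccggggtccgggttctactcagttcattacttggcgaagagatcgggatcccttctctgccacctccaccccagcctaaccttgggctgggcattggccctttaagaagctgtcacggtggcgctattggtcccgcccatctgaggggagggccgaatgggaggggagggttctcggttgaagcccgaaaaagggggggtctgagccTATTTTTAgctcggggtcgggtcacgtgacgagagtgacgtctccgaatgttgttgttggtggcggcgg
Id2: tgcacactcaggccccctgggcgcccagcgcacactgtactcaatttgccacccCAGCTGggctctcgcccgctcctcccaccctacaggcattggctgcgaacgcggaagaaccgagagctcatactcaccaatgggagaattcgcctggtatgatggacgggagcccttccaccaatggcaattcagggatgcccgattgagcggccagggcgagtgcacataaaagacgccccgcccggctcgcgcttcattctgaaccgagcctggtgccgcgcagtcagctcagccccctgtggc
The 4 motifs searched on both strands were the E-box CAGCTG that myogenic factors bind, the MEF2-like TAAAAATA, the AP-1 word TGANTCA and the FoxO word TGTTTAC, and no word contains another. A RefSeq promoter was matched by symbol for 533 of the 726 genes at least 2-fold higher, for 458 of the 639 at least 2-fold lower and for 8736 of all 11343. The E-box stood in 17.6% of the promoters of higher genes, 18.1% of lower genes and 14.4% of all. AP-1 words stood in 6.57%, 6.99% and 4.49%, MEF2-like words in 1.13%, 1.53% and 1.18%, and FoxO words in 2.06%, 1.31% and 2.37%. In this window the higher and the lower genes thus had much the same shares of each motif, and a match describes letters and not binding. Hdac4, Runx1, Chrnb1, Ankrd1 and Plekhh1 held none of the 4 words in these 300 bases.

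Known atrophy genes were split. Fbxo32, which encodes the ubiquitin ligase atrogin-1, was at 267 CPM in KS and 655 CPM in KD, a log2 ratio of 1.30 (interval 1.26 to 1.33). Fbxo30, the ligase MUSA1 of the BMP-dependent branch, was at 21.6 CPM in KS and 54.7 CPM in KD (1.34). Asb2 was at 481 CPM in KS and 189 CPM in KD (-1.34) and Wwp1 at 464 CPM in KS and 227 CPM in KD (-1.03). Asb2 and Wwp1, also ubiquitin ligases, thus went the other way from Fbxo32 and Fbxo30, and the other 16 ligases of the list were within 2-fold. Of the FoxO factors that drive atrogin-1, Foxo1 was at 23.6 CPM in KS and 68.8 CPM in KD (1.54), Foxo3 had a ratio of 0.08 and Foxo4 one of -0.96. The metallothioneins, metal-binding proteins that rise in many forms of atrophy, were the highest of this list: Mt2 at 1.39 CPM in KS and 52.9 CPM in KD (5.18) and Mt1 at 6.58 CPM in KS and 43.4 CPM in KD (2.71). Across the 122 TRIM, F-box and Kelch-BTB genes compared, 6 were at least 2-fold higher (4.92%) and 5 at least 2-fold lower (4.10%), close to the shares over all genes. Fbxo36 (2.16) and Klhl5 (1.39) led the higher ones, and Asb4 (-1.61) and Kbtbd12 (-1.48) the lower ones.

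Under TMM scaling the proteasome stood above its sham level in a different way, by many small differences. Of 61 genes of subunits, assembly factors and ubiquitin handling, 48 had ratios above 0, against 5693 of all 11343. The median was 0.39, yet 1 alone passed 2-fold (1.64%, against 6.40% higher over all genes). That gene was Psmg4, an assembly chaperone, at 1.66 CPM in KS and 5.49 CPM in KD (1.69). Psmd11 (0.90), Psmb5 (0.86) and the assembly factor Pomp (0.97) followed. Scaled to total counts alone, 14 of the 61 were at least 2-fold higher and the median was 0.75, while 1527 of all 11343 genes were at least 2-fold higher. The immunoproteasome subunit Psmb8 (-0.92), the activator Psme4 (-0.50) and the polyubiquitin gene Ubb (-0.42) were less than 2-fold from sham. Among 88 autophagy and lysosome genes, 6 were at least 2-fold higher (6.82%, close to the share over all genes) and 1 was lower (1.14%), with a median of 0.11. Map1lc3a, an LC3 of the autophagosome membrane, was at 182 CPM in KS and 539 CPM in KD (1.56). Atp6v1a, a subunit of the proton pump that acidifies lysosomes, was at 26.1 CPM in KS and 97.7 CPM in KD (1.90), and the protease gene Ctsl at 124 CPM in KS and 359 CPM in KD (1.53). Tfeb, a transcription factor of lysosomal genes, was the lower one, at 83.2 CPM in KS and 39.1 CPM in KD (-1.09), and Psap (-0.97), Npc1 (-0.87) and Ulk2 (-0.85) stayed within 2-fold.

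Growth arrest genes of the GADD45 family differed in direction. Gadd45a was at 26.9 CPM in KS and 698 CPM in KD, a log2 ratio of 4.69 (interval 4.60 to 4.80). Gadd45b was at 39.6 CPM in KS and 4.63 CPM in KD (-3.08) and Gadd45g at 48.2 CPM in KS and 15.7 CPM in KD (-1.62). A single member of the family was therefore higher in KD and the remaining pair lower. Cdkn1a, the p21 cyclin kinase inhibitor and a classical p53 target, was at 11.2 CPM in KS and 318 CPM in KD (4.82), and Eda2r, a receptor of the TNF family, at 19.2 CPM in KS and 227 CPM in KD (3.57). In all, 8 of 34 genes of this list (23.5%, against 6.40% over all genes) were at least 2-fold higher. A further 3 (8.82%, against 5.63%) were lower, the DNA polymerase gene Polk (-1.26) being the third.

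Polyamine genes gave some of the largest ratios among enzymes. Besides the Amd genes and Smox, Adi1 of the methionine salvage pathway was at 66.8 CPM in KS and 29.1 CPM in KD (-1.20) and the lysosomal polyamine exporter gene Atp13a2 at 34.3 CPM in KS and 16.8 CPM in KD (-1.02). Atp13a3, a related transporter, was at 35.8 CPM in KS and 637 CPM in KD (4.15). Odc1, ornithine decarboxylase, was at 179 CPM in KS and 317 CPM in KD (0.82), and the spermidine and spermine synthases Srm and Sms stood at 0.15 and 0.05. Of 25 genes compared, 5 were at least 2-fold lower (20%, against 5.63% over all genes), with Amd1 and Amd2 counted apart although they share reads. Only 1 was higher (4%, against 6.40%). The median was -0.06, so the list divides into a few genes with large ratios and a majority near 0.

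Contractile genes differed by fiber type. The fast-fiber genes were below sham: Tpm1 was at 17539 CPM in KS and 8209 CPM in KD (-1.10), with Tnni2 at -0.94, Mylpf at -0.86 and Myh1, whose sign turns under total-count scaling, at -0.30. Of 5 slow and cardiac forms, 4 were above it. Tnnt1, the slow troponin T, was at 5.58 CPM in KS and 43.7 CPM in KD (2.95), the atrial light chain gene Myl4 at 7.84 CPM in KS and 39.5 CPM in KD (2.32) and the slow calcium pump gene Atp2a2 at 34.9 CPM in KS and 169 CPM in KD (2.28). Tnnc1 (0.83) and Tpm3 (-0.29) of the same group were within 2-fold, the former above and the latter below sham. By the 2-fold rule, 3 of 5 slow or cardiac genes were thus higher and 1 of 4 fast genes, Tpm1, was lower. The shares over all genes were 6.40% higher and 5.63% lower. The M-band gene Myom3 was at 40.1 CPM in KS and 748 CPM in KD (4.22), against -0.51 for Myom1. Lmod2, a thin-filament leiomodin, was at 168 CPM in KS and 465 CPM in KD (1.47), whereas Lmod1, the form of smooth muscle, was at 7.24 CPM in KS and 0.925 CPM in KD (-2.88). Capn3, the muscle calpain, was at 217 CPM in KS and 83.1 CPM in KD (-1.39), and nebulin (Neb) stood at 0.10. Genes of small heat shock, LIM and other proteins that answer mechanical strain were split. Hspb8 was at 369 CPM in KS and 2532 CPM in KD (2.78), Hspb7 at 701 CPM in KS and 2249 CPM in KD (1.68) and Csrp3 at 109.9 CPM in KS and 369 CPM in KD (1.75). Of 14 genes in that group, 8 were above sham, 5 of them by at least 2-fold (35.7%, against 6.40% over all genes). Synpo2 (-1.44) and Pdlim7 (-1.14) were at least 2-fold lower (14.3%, against 5.63%).

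Of 41 genes that couple excitation to contraction or handle calcium, 28 were below their sham level, with Rrad as the far exception. Cacnb1, a subunit of the L-type channel, stood at 0.05, Cacna2d1 at -0.66 and the coupling adaptor Stac3 at -0.72. Of 20 genes of release and uptake by the sarcoplasmic reticulum, Atp2a2 was higher and the receptor channel gene Itpr1, at 36.7 CPM in KS and 15.3 CPM in KD (-1.26), was lower, with Jph1 (-0.98) near the threshold. Calcium/calmodulin kinases were higher in the subunits Camk2d, at 56.0 CPM in KS and 172 CPM in KD (1.62), and Camk2b, at 218 CPM in KS and 477 CPM in KD (1.13). On the calcineurin side, Nfatc4 was at 3.95 CPM in KS and 0.989 CPM in KD (-1.93), and the catalytic subunit gene Ppp3cb was close to 2-fold below sham. The median over the 41 genes was -0.51.

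Some channel and receptor genes had large ratios from low sham levels. A gene with few sham counts passes the filter only through a high KD count, so a large upward ratio is built into its selection. Kcnk5, a background potassium channel gene, was at 0.631 CPM in KS and 41.2 CPM in KD (5.89), and the sodium channel gene Scn3a at 0.731 CPM in KS and 8.80 CPM in KD (3.48). The sodium channel subunit gene Scn4b was at 979 CPM in KS and 311 CPM in KD (-1.65), Kcnn2 at 10.9 CPM in KS and 2.20 CPM in KD (-2.27) and Kcnab1 at 4.22 CPM in KS and 1.15 CPM in KD (-1.82). Of 27 channel genes, 4 were at least 2-fold higher (14.8%) and 5 lower (18.5%), against 6.40% and 5.63% over all genes. Among receptors, the adrenergic Adra1b was at 0.166 CPM in KS and 6.79 CPM in KD, from 5 counts (4.89), the muscarinic Chrm3 at 0.332 CPM in KS and 6.06 CPM in KD (3.95) and the natriuretic peptide clearance receptor Npr3 at 20.1 CPM in KS and 124 CPM in KD (2.62). The purine-gated channel gene P2rx4 was at 1.76 CPM in KS and 5.14 CPM in KD (1.51) and the adenosine receptor gene Adora2a at 2.59 CPM in KS and 1.24 CPM in KD (-1.02). The ratios of Adra1b and Chrm3 rest on small sham counts, and the counting interval of Adra1b runs from 4.11 to 6.99.

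Genes of glycolysis and glycogen use were mostly below sham, many of them by at least 2-fold. Slc16a3, the lactate exporter MCT4, was at 429.9 CPM in KS and 47.8 CPM in KD, a log2 ratio of -3.17 (interval -3.25 to -3.09). Gpd1, glycerol-3-phosphate dehydrogenase, was at 876 CPM in KS and 201 CPM in KD (-2.13) and Pfkfb1, which controls an activator of glycolysis, at 95.1 CPM in KS and 20.5 CPM in KD (-2.21). The glycogen phosphorylase gene Pygm was at 9080.0 CPM in KS and 3263 CPM in KD (-1.48). Phosphorylase kinase subunits Phkg1 (-1.43) and Phka1 (-1.37) were at least 2-fold lower as well, and the glycogen synthase gene Gys1 stood at -0.83. Stbd1, which links glycogen to autophagy, went the other way, at 52.9 CPM in KS and 187 CPM in KD (1.82), and the branching enzyme gene Gbe1 stood at 0.86. In all, 13 of 39 genes (33.3%, against 5.63% over all genes) were at least 2-fold lower. A single gene (2.56%, against 6.40%) was at least 2-fold higher, and the median was -0.72. In purine nucleotide metabolism, the deaminase Ampd3 of non-muscle tissues was at 8.83 CPM in KS and 150.0 CPM in KD (4.08) and the muscle adenylosuccinate synthase Adssl1 at 1382 CPM in KS and 475 CPM in KD (-1.54). Prkaa2 and Prkab2, subunits of the energy sensor AMPK, were at ratios of -1.33 and -1.20.

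Under TMM scaling nearly all respiratory chain genes lay below sham, with a median closer to 0 for those in the nucleus than for those in the mitochondrial genome. Of the 81 nuclear genes of the respiratory chain, 79 had ratios below 0, with a median of -0.40, and Ndufa4l2, at 8.87 CPM in KS and 2.39 CPM in KD (-1.86), was the only one past 2-fold. The medians by complex were -0.37 for complex I, -0.52 for complexes II and III, -0.34 for complex IV and -0.39 for complex V. Under total-count scaling the median over the 81 moved to -0.04, so neither the size of the shift nor the count of 79 holds under it. All 13 mitochondrially encoded genes were below sham, from -1.44 for ND2 to -0.66 for ND6 (median -0.92), and 3 of them, ND2, ND1 and ND4L, passed 2-fold. COX1, the subunit of cytochrome oxidase with the most reads, was at 101490.0 CPM in KS and 56142 CPM in KD (-0.85). The mitochondrial ribosome had a median of -0.03 over 80 genes with none past 2-fold, and the calcium uniporter regulator gene Micu2 (1.01) was past 2-fold upward among the 50 genes of biogenesis, dynamics and import. The adenine nucleotide carrier gene Slc25a4 was at 5092 CPM in KS and 2411 CPM in KD (-1.08), while Slc25a24, which carries ATP-magnesium, was at 3.02 CPM in KS and 12.6 CPM in KD (2.03). In the citrate cycle, Idh3a was at 1025 CPM in KS and 503 CPM in KD (-1.03), the phosphatase gene Pdp1 at -1.05, the malic enzyme gene Me2 at 4.48 CPM in KS and 16.0 CPM in KD (1.82) and the pyruvate dehydrogenase kinase gene Pdk4 at 0.55. Of 44 genes of fatty acid use, Lpl, which frees fatty acids from lipoproteins, was at 649.6 CPM in KS and 215 CPM in KD (-1.60), the lipid droplet genes Plin3 and Plin4 at -1.61 and -1.24, and Acsl3, which activates fatty acids, at 21.9 CPM in KS and 72.6 CPM in KD (1.73).

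**Figure D3:**
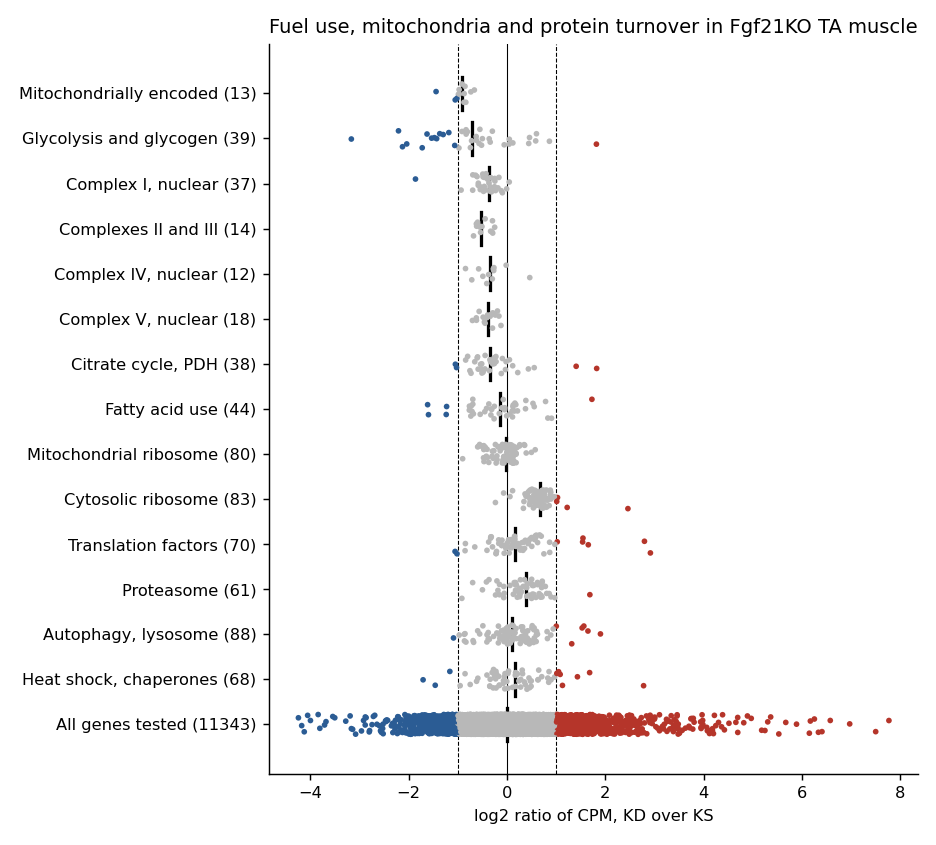
Log2 ratio of KD over KS (horizontal axis) for the genes of 14 lists and for all 11343 genes, with the number of genes in parentheses. Each point is a gene, red or blue past 2-fold (dashed lines), and the black bar is the median. The bars lie at -0.92 for mitochondrially encoded genes and -0.72 for glycolysis and glycogen, and at 0.67 for the cytosolic ribosome.

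The cytosolic ribosome was shifted as a block. Of 83 ribosomal protein genes, 81 had ratios above 0, with a median of 0.67, and 4 passed 2-fold. Rpl3 was at 44.5 CPM in KS and 245 CPM in KD (2.46), Rps27a at 157 CPM in KS and 367 CPM in KD (1.22) and Rpl13a at 194 CPM in KS and 395 CPM in KD (1.03). Ribosomal protein genes have many near-identical pseudogenes, and how reads were divided among them is uncertain. Under total-count scaling 46 of the 83 were past 2-fold. Eef1a1, the elongation factor that gives way to Eef1a2 in mature muscle, was at 315 CPM in KS and 2191 CPM in KD (2.80), and the helicase gene Eif4a1 had a ratio of 1.65, while Eif4ebp2 (-1.06) and Eif1 (-1.02) were lower. Among 68 heat shock genes, Hsp90aa1 was at 37.7 CPM in KS and 102 CPM in KD (1.43), after Hspb8 and Hspb7, and Hspa12a (-1.71) and Hspa12b (-1.46) were lower. The splicing regulator gene Mbnl1 was at 435 CPM in KS and 178 CPM in KD (-1.29) and its relative Mbnl3 at 0.996 CPM in KS and 3.83 CPM in KD (1.88), the only 2 of 51 splicing factor genes past 2-fold. In the cytoskeleton, the microtubule-associated Map1b was at 7.94 CPM in KS and 111 CPM in KD (3.79). The tubulin gene Tubb6 was at 9.66 CPM in KS and 83.5 CPM in KD (3.10). The striated muscle tubulin gene Tuba8 was at 236 CPM in KS and 64.7 CPM in KD (-1.86). Of 50 tubulin and motor genes, 8 (16.0%, against 6.40% over all genes) were at least 2-fold higher and 2 (4%, against 5.63%) lower.

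Ligands and inhibitors of the TGF-beta family differed in direction. Of 9 ligand genes, 2 were at least 2-fold higher and 5 lay below sham, among them Bmp6 (-0.98). Of 17 binding and inhibitory genes, 4 were at least 2-fold higher and 10 lay below sham, with Ltbp4 (-1.13) past 2-fold. Tgfb1 was at 6.31 CPM in KS and 26.2 CPM in KD (2.04), the activin subunit gene Inhbb at 0.565 CPM in KS and 2.78 CPM in KD (2.17) and Fst, whose product follistatin traps activin and myostatin, at 0.863 CPM in KS and 17.0 CPM in KD (4.20). Chrd, the BMP antagonist chordin, was at 4.15 CPM in KS and 16.7 CPM in KD (1.99). Among receptors, Tgfbr1 was at 32.5 CPM in KS and 107 CPM in KD (1.72), Acvr2b, which binds myostatin, at 52.4 CPM in KS and 14.7 CPM in KD (-1.83) and Acvr1 at -1.03. Of 51 genes of the family, 11 (21.6%, against 6.40% over all genes) were at least 2-fold higher. Those at least 2-fold lower were 3 (5.88%, close to the 5.63% over all genes). The target Ccn1 was at 16.5 CPM in KS and 96.8 CPM in KD (2.55), but Ccn2 (-0.60) and Tgfbi (-0.83) were below sham by less than 2-fold, so the targets did not share a direction. The median of the family was -0.27, which turned to 0.09 under total-count scaling.

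Immediate early and MAP kinase genes went both ways. Junb was at 5.28 CPM in KS and 32.3 CPM in KD (2.60), Atf3 at 4.25 CPM in KS and 20.2 CPM in KD (2.23) and Myc at 4.02 CPM in KS and 12.9 CPM in KD (1.67). Nr4a1, an orphan receptor that answers muscle activity, was at 219 CPM in KS and 30.1 CPM in KD (-2.87), and the large MAF factor gene Maf at -1.82. Among phosphatases that switch off MAP kinases, Dusp4 (1.20 CPM in KS and 25.9 CPM in KD, 4.37) and Dusp2 (3.26) were higher while Dusp7 (-2.31), Dusp10 (-1.79) and Dusp8 (-1.50) were lower. Mapk4, an atypical kinase gene, was at 0.432 CPM in KS and 5.49 CPM in KD (3.48), and the p38 gene Mapk14 and its substrate kinase gene Mapkapk2 at -1.19 and -1.39. In the FGF family the receptor gene Fgfr3 was at 2.86 CPM in KS and 7.98 CPM in KD (1.46), Flrt2 at 1.15 and the ligand gene Fgf2 at 12.2 CPM in KS and 3.16 CPM in KD (-1.93). The insulin-like growth factor binding genes split, with Igfbp5 at 722 CPM in KS and 1989 CPM in KD (1.46) and Igfbp6 (-1.80) and Igfbp3 (-1.16) lower.

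Stress and antioxidant genes were higher in part. In the integrated stress response, the amino acid transporter genes Slc7a5 (1.13 CPM in KS and 15.5 CPM in KD, 3.70) and Slc38a1 (3.19) and the mitochondrial folate enzyme gene Mthfd2 (4.82 CPM in KS and 33.2 CPM in KD, 2.77) led, while the arginine transporter gene Slc7a2 (-1.88) and the glutathione-degrading Chac1 (-1.49) were lower. Of 53 glutathione and NRF2 genes, 9 (17.0%, against 6.40% over all genes) were at least 2-fold higher. Among them were the pentose phosphate enzyme gene Pgd (16.5 CPM in KS and 56.8 CPM in KD, 1.78) and the heme oxygenase gene Hmox1 (6.28 CPM in KS and 18.3 CPM in KD, 1.53). Mgst3 (-1.93) and Mgst1 (-1.22) were the 2 at least 2-fold lower (3.77%, against 5.63%). Clock genes were mostly within 2-fold, apart from Bhlhe41 (-1.40) and Hlf (-1.22). In replication, Rrm2 of ribonucleotide reductase was at 0.996 CPM in KS and 19.2 CPM in KD (4.18), E2f2 at 3.82 CPM in KS and 22.5 CPM in KD (2.54) and Rb1 at 26.6 CPM in KS and 129.7 CPM in KD (2.29), whereas the mitotic kinase gene Aurka was at 4.98 CPM in KS and 2.01 CPM in KD (-1.28).

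Markers of nonmuscle cells differed between the libraries, and in bulk muscle fewer cells of a type cannot be told apart from less RNA per cell. All 12 endothelial markers were below sham, from -1.06 for Cdh5 to -0.56 for Emcn, and their summed level was 656 CPM in KS and 349 CPM in KD. All 8 pericyte and smooth muscle markers compared, of 10 listed, were below sham as well (summed 1069 and 677 CPM), with Abcc9 close to 0 at -0.05, and 5 of them, among them Rgs5 at 511 CPM in KS and 225 CPM in KD (-1.18), passed 2-fold. The 5 erythroid genes lay between -1.01 and -0.90. Of 5 Schwann cell markers compared, of 10 listed, Prx (6.58 CPM in KS and 0.925 CPM in KD, -2.75), Pmp22 (34.1 CPM in KS and 6.64 CPM in KD, -2.35) and Ngfr (-1.06) were at least 2-fold lower, and the summed level was 62.9 CPM in KS and 24.8 CPM in KD. All 9 macrophage markers compared, of 14 listed, were above sham (summed 36.5 and 73.1 CPM), led by Cd68 at 1.06 CPM in KS and 10.6 CPM in KD (3.24), Tyrobp (1.74) and Mrc1 (1.09). Fibro-adipogenic progenitor markers summed to 967 and 637 CPM, with 9 of 11 below sham and Pi16 the lowest (-1.05). Adipocyte markers summed to 243 and 179 CPM, and Fmod of the tenocyte list stood at -0.95. None of the 6 neutrophil and 11 lymphocyte markers was among the genes compared.

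**Figure D4:**
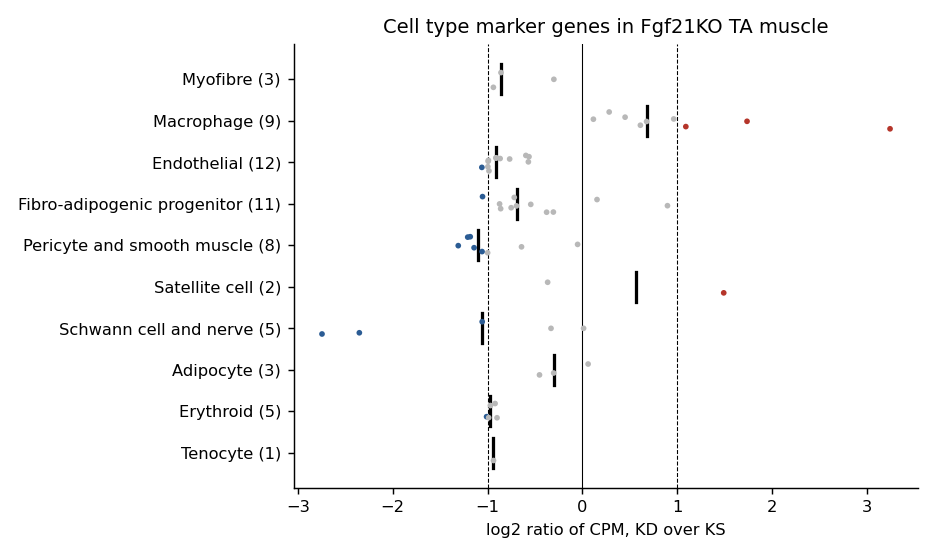
Log2 ratio of KD over KS (horizontal axis) for the cell type markers compared, with their number in parentheses. Points are genes, colored red or blue past 2-fold (dashed lines), and black bars are medians. Endothelial and pericyte markers lie wholly left of 0 and macrophage markers wholly right of it.

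Matrix, guidance and immune genes are read beside those markers, whose part in them was not tested. Of 90 matrix genes 10 (11.1%, against 5.63% over all genes) were at least 2-fold lower and 5 (5.56%, against 6.40%) higher. Their median was -0.48. Spp1, which encodes osteopontin, was at 2.32 CPM in KS and 43.2 CPM in KD (4.18), and it was the only 1 of 31 matrix protein genes at least 2-fold higher. Among basement membrane collagens Col4a5 was at 1.33 CPM in KS and 7.75 CPM in KD (2.49) and Col4a3 at 3.32 CPM in KS and 0.383 CPM in KD (-2.92), and the fibrillar Col1a1 and Col3a1 stood at -0.72 and -0.38. Tnxb (-1.26), Lama4 (-1.13), the protease inhibitor gene Serpine2 (-1.52) and the protease gene Adamts5 (-1.19) were lower, and the collagen-modifying Plod2 (1.59) was higher. Of integrin subunits, Itga9 (1.52) was higher and Itgb4 (-1.77) and Itga4 (-1.62) were lower. In axon guidance, the receptor gene Robo2 was at 1.20 CPM in KS and 14.3 CPM in KD (3.51), Ephb3 at 0.897 CPM in KS and 4.21 CPM in KD (2.15), Sema6a at 12.4 CPM in KS and 31.2 CPM in KD (1.33) and Sema6c at 176 CPM in KS and 35.9 CPM in KD (-2.30). Guidance genes had a median of -0.52 over 39, with 4 at least 2-fold higher (10.3%) and 5 lower (12.8%). The shares over all genes were 6.40% and 5.63%. Cytokine and trophic receptor genes included Tnfrsf12a, the receptor of TWEAK, with a ratio of 2.15, Cntfr with 1.64 and Lifr at 85.7 CPM in KS and 37.1 CPM in KD (-1.21), and the adaptor gene Maged1 was at 23.0 CPM in KS and 149.6 CPM in KD (2.70). The chemokine receptor gene Ccr2 (1.54) was higher and the cytokine gene Il15 (-1.69) lower. Interferon-induced genes had shares close to those over all genes, with 4 of 53 at least 2-fold higher (7.55%), led by Gbp10 (1.46) and Irgm1 (1.42), and 3 lower (5.66%), with Irf5 at 32.3 CPM in KS and 5.30 CPM in KD (-2.59).

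Set beside the WT pair, which shares no library with KS and KD, most of these genes also differed there. In WD over WS, 720 genes (6.35%) were at least 2-fold higher and 779 (6.87%) lower. These WT counts cover only genes that passed the filter on KS and KD, so genes well counted in WT alone are left out. Of the 726 higher in KD, 569 were also at least 2-fold higher in WD (78.4% of the Fgf21KO genes and 79.0% of the WT genes), and 716 had a WT ratio above 0. Of the 639 lower in KD, 466 were also lower in WD (72.9% and 59.8%), and 632 had a WT ratio below 0. None was past 2-fold in opposite directions. The ratio differed between genotypes by less than 0.5 for 10261 genes (90.5%) and by 1 or more for 159, 88 of them more positive in Fgf21KO and 71 more negative. With 1 library per group the difference between genotypes has no degrees of freedom and was not tested.

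**Figure D5:**
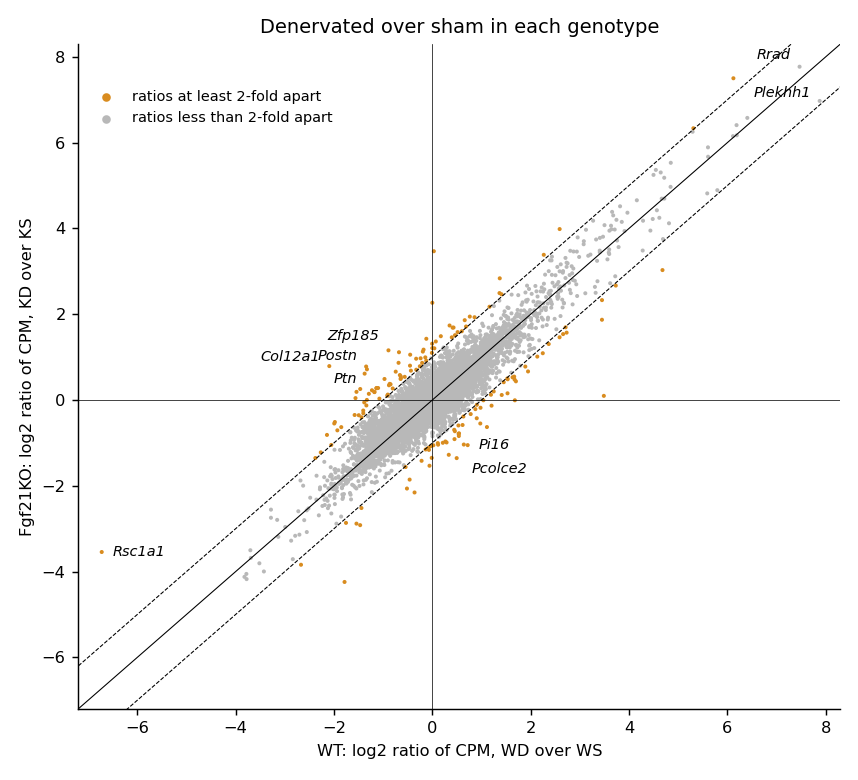
Log2 ratio of denervated over sham in WT (horizontal axis, WD over WS) and in Fgf21KO (vertical axis, KD over KS) for 11343 genes. The solid line marks equal ratios and the dashed lines a 2-fold difference between them, beyond which the 159 genes are orange. Col12a1, Postn and Ptn lie in the upper left field and Pi16 and Pcolce2 in the lower right.

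Matrix genes were among those farthest from that line. Col12a1, a collagen at the surface of fibrils, was at 10.7 CPM in KS and 18.5 CPM in KD (0.79), and at 37.6 CPM in WS and 8.73 CPM in WD (-2.10). Postn, the matrix protein periostin, was at 18.5 CPM in KS and 30.5 CPM in KD (0.72), and at 53.8 CPM in WS and 21.4 CPM in WD (-1.33). Ptn, the growth factor pleiotrophin, had ratios of 0.78 in Fgf21KO and -1.35 in WT. For Col12a1 and Postn the sham levels lay farther apart between genotypes than the denervated ones, with each pair scaled on its own. Rsc1a1, also far from the line, had ratios of -3.54 and -6.72 and rests on 5 counts in WD. The predicted genes Gm28043, Gm21992, Gm12185, Gm34758 and LOC115489886 fell under the same rule, as did Slc24a3 (0.19 and -1.54). By contrast the ratio in Fgf21KO and in WT was 1.30 and 1.13 for Fbxo32, 2.65 and 2.48 for Chrnb1, 2.84 and 2.71 for Hdac4, and 4.69 and 4.66 for Gadd45a. Cdkn1a stood at 4.82 and 5.59.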

How the data were processed

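TA muscle mRNA of the 4 groups was sequenced from TruSeq Stranded libraries, each made from 4 pooled muscles. The authors deposited raw read counts for each gene. A further deposited table carries log2 values and is named for FPKM, but its entries are the counts multiplied by a constant for the library, raised by 1 and put on the log2 scale, with no term for gene length. The submitters' processing notes name build GRCm39 and FastQC. The aligner, the counter and its strand setting are not given in the sources used here. The paper's methods name edgeR with an adjusted p-value threshold and a 2-fold change, which 1 library per group does not allow to be repeated without an assumed dispersion.

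Counts of KS and KD were scaled by TMM factors (0.883 and 1.13; edgeR 4.0.16 in R 4.3.3) over the 11343 genes averaging 50 counts or more, and WS and WD as their own pair (0.908 and 1.10). Log2 ratios used a prior count of 2. Calls are ratios of at least 2-fold, with no test. Counting intervals are exact binomial (95%, scipy 1.17.1 for the shares of lists) and leave out the spread between mice, since reads are not independent animals. Groups and the abbreviations KS, KD, WS and WD follow the labels and the paper's legend.

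The members, gene lists, markers and motifs were chosen with earlier results of these data known. Genes named are the 12 highest and 12 lowest ratios, the 3 highest and 3 lowest of each list (all of lists of up to 15 genes), the 8 largest differences from WT in each direction and the cell type markers. Of the 568 genes under this rule some are counted only and some are not reported here. The pattern for mitochondrial gene symbols was corrected once the spelling in the table was seen. Alternatives were DESeq2 1.42.0 size factors, total counts, TMM without mitochondrial genes, mean counts of 10, none and 200, the deposited log2 values, prior counts of 0.125 and 5, intervals past 2-fold, and edgeR's exact test at assumed variation of 0.1 and 0.4. The ratio step was tested on simulated counts. Promoters are RefSeq sequences of GRCm38.p6, not the build of the files.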

Additional observations from a re-analysis of the deposited data

Results flagged for a closer look

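Among the genes named by the rule, 7 had ratios of denervated over sham that pointed opposite ways in Fgf21KO and in WT, each with a counting interval off 0 and at least 1 of the ratios past 2-fold. Over all genes compared, 138 had opposite ratios with both intervals off 0, and 10 of these, the 7 included, were past 2-fold in at least 1 genotype and 0 in both. The difference between genotypes was not tested, since each group is 1 library.

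Col12a1 had a log2 ratio of 0.79 in Fgf21KO and -2.10 in WT. Postn had 0.72 and -1.33, and Ptn 0.78 and -1.35. Zfp185 had 1.16 and -0.89, and Igsf10 1.11 and -0.68. In the other direction, Pi16 had -1.05 in Fgf21KO and 0.72 in WT, and Zfp605 -1.04 and 0.64. Fibroblast-related genes stand on both sides: the matrix genes Col12a1 and Postn were above their sham level in Fgf21KO alone, and the progenitor marker Pi16 in WT alone. The summed level of the 11 fibro-adipogenic progenitor markers, a list that holds Pi16, was 967 CPM in KS, 637 CPM in KD, 980.2 CPM in WS and 666 CPM in WD, and its part in these ratios was not tested.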

How the results depend on the processing

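With 726 genes at least 2-fold higher, 639 lower and 1035 shared with WT as reported, DESeq2's size factors, TMM without mitochondrial genes, a smaller and a larger prior count, a mean count of 10, no filter, the deposited log2 values and edgeR's exact test at an assumed variation of 0.1 kept each count within 1.5 times. Total counts alone gave 1527 higher and 265 lower. A mean count of 200 gave 474 higher. Intervals wholly past 2-fold gave 384 lower and 674 shared. At an assumed variation of 0.4, edgeR's exact test called 68 higher, 12 lower and 59 shared, so the number of genes called rests on a spread between animals that these libraries cannot show. The share of upward calls, 53.2% as reported, was 85.0% there. Among 568 named genes, total counts moved 101 to the other side of 2-fold and each of the other settings run on them 2, none to the opposite direction. Medians of 19 of 42 lists changed sign under some scaling and 23 did not. No paired analysis was possible because a group has 1 library made from pooled RNA, and no replicate could be left out for the same reason. Counting depth limits genes near 50 counts and genes that are low in a single library. Of the genes compared, 8 had under 10 counts in a library, among them Ces2c with 3 in KS and 933 in KD.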

Other observations

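The filter at 50 counts left out 2482 of the 13825 genes analysed here, each with at least 1 read in every library, and no level is given for them. With these genes included, 1018 were at least 2-fold higher in KD than in KS and 862 lower, against 726 and 639 with the filter. Among the genes compared, 15 counts in KS and 1345 in KD made the predicted gene Gm46162 (6.25) the highest without a described product, and the pseudogene Eef1a1-ps1 (2.92) stood beside its parent gene Eef1a1 (2.80), with which it may share reads. Of 13 collagen processing genes compared, Pcolce2, an enhancer of procollagen cleavage, was at 3.12 CPM in KS and 1.18 CPM in KD (-1.36), against 1.62 CPM in WS and 2.31 CPM in WD (0.49), where its counting interval holds 0.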
